A study of Mus musculus with 9 samples.

Results

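The EGR transcription factor genes Egr1, Egr2, Egr3 and Egr4 and the NAB corepressor genes Nab1 and Nab2 were followed in adult neural stem cells (NSCs) of the mouse during the first hours of differentiation. These 6 genes, of the 48526 in the count table, were found through their Ensembl identifiers, and all 6 passed the expression filter that left 18858 genes for testing. Egr1, Egr2 and Egr3 were chosen by their falls at 6 h, and by their differences at 1 h, in an earlier analysis of the same libraries. Egr4, Nab1 and Nab2 were added to complete the family by name. The levels and fold changes of the 6 genes are therefore given as a description. Where calls of the members are counted, they stand beside the share called over all genes and restate the values by which Egr1, Egr2 and Egr3 were selected, so that they are no independent evidence.

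NSCs were isolated from the subependymal zone (SEZ) of adult mice of the strain C57BL/6, with no genetic change named in the labels, and expanded as neurospheres in medium with EGF and FGF. Differentiation was induced by growing the cells on an adhesive substrate without EGF, while FGF was kept. RNA was collected before this change (0 h) and 1 h or 6 h later, in 3 replicates each, which made 9 libraries. According to the methods of the study, cells fixed at such early time points were first plated in the complete medium for a day. The methods do not say whether this also held for the cells that were sequenced. All 3 groups were cultures of expanded cells and not tissue. The labels tell the replicates apart by letters (B, C and D, here numbers 1, 2 and 3). They do not say whether equal numbers share an animal or a culture, so the spread between libraries may be technical in part.

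EGR proteins are zinc finger transcription factors that bind a GC-rich site in the DNA. Their genes are classical immediate early genes, which growth factors such as EGF and FGF switch on within minutes through the Ras and ERK kinase cascade, SRF with its ETS partners on CArG boxes (the binding site of SRF), and CREB on cyclic AMP response elements (CRE). NAB proteins bind EGR1, EGR2 and EGR3, but not EGR4, and repress their activity, in part by bringing in the chromatin remodelling complex NuRD. Nab2 is itself a gene that EGR factors switch on, so that EGR and NAB proteins form a feedback loop.

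The upstream sequences of Egr2 and Egr4 are shown because they carry letters of the CArG box or of the CRE, the elements named above. RefSeq start site windows (250 bases before to 50 after the start, GRCm38.p6) were at hand for 4 of the 6 genes, Egr2 (5 windows), Egr4, Nab1 and Nab2 (1 each). They were searched on both strands for the CArG box, the EGR site GCGNGGGCG, the CRE TGACGTCA and its half-site TGACG, which is also found inside each full CRE. Of the 5 Egr2 windows, the one shown was picked as the first of those with the most matches. Another held a CArG box only, and another held none of the 4 motifs. The 250 bases shown before an Egr2 start site, chr10:67537619-67537868 on the plus strand, lay within the annotated gene and outside its exons. Capitals mark 1 CArG box that began 72 bases before the start, and 2 CRE half-sites that began 111 and 55 bases before it, the latter on the minus strand. The 250 bases before the Egr4 start site, chr6:85513590-85513839 on the minus strand, held 2 CRE half-sites (capitals), 177 and 109 bases before the start, and no CArG box.
Egr2: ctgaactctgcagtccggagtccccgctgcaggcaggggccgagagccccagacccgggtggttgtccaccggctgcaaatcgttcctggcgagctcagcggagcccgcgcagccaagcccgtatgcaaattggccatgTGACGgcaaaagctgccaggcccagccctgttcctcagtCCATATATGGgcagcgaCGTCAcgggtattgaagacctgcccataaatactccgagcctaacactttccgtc
Egr4: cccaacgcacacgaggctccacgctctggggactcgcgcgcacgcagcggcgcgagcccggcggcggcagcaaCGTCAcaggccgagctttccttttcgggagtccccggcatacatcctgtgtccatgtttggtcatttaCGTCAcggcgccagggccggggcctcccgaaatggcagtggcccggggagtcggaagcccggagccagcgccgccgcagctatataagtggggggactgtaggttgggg

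CArG boxes were present in 4 of the 5 Egr2 windows, of which 3 overlap and share the box shown, and in 1.63% of the 32851 start site windows of the RefSeq table. CRE half-sites were present in 20.8% of all windows. The window of Nab1 held 3 EGR sites, against 5.55% of all windows with at least 1 such site, and 1 CRE half-site on the minus strand, 123 bases before the start. The windows of Egr2 and Egr4 held no EGR site, and the window of Nab2 held none of the 4 motifs. These matches describe the letters only, and no binding was measured here.

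The 9 libraries held between 65871454 and 105592597 counts. Levels are given as CPM, the usual measure of counts relative to library size, here with the TMM factors of edgeR. Comparisons used the quasi-likelihood test of edgeR with time point alone in the model, and a gene is called when its Benjamini-Hochberg adjusted p over all 18858 genes is under 0.05. Equal replicate numbers paired the libraries, so a second fit was blocked on the replicate number. It is given for the members wherever it changed a call, and for genes named from the lists. For the cell type markers only levels are given, and no calls of either fit. The 9 markers of NSCs and progenitors, such as Nes and Sox2, summed to between 6782 and 9650 CPM in every library. The 6 neuronal markers summed to between 19.7 and 41.9 CPM at 0 h and 1 h and to between 58.5 and 121 CPM at 6 h. Most of this sum was Syt1, with 22.8 ± 11.6 CPM (SD, n = 3) at 0 h and 70.3 ± 38.5 CPM at 6 h. Tubb3 had 3.76 ± 1.52 CPM at 0 h and 7.83 ± 3.00 CPM at 6 h. Rbfox3 had 2.37 ± 1.54 and 5.48 ± 3.42 CPM, and Snap25 1.81 ± 1.57 and 2.55 ± 2.17 CPM. The neuroblast marker Dcx had 1.08 ± 0.613 and 0.811 ± 0.211 CPM and Stmn2 0.331 ± 0.406 and 0.194 ± 0.243 CPM. The 6 microglial markers never exceeded 0.526 CPM in sum, with C1qa at 0. Summed CPM lay between 2.68 and 19.0 for the 5 endothelial markers, between 4.74 and 7.44 for the 5 oligodendrocyte markers, between 38.5 and 93.3 for the 4 ependymal markers and between 67.2 and 231 for the 5 astrocyte markers, with the endothelial Cldn5 at 0 at 0 h and 1 h and the astrocytic Gjb6 at 0 at 1 h. Aldh1l1 made up most of the astrocyte sum, with 140 ± 75.2 CPM (SD, n = 3) at 0 h. At that time point Gfap had 1.31 ± 0.292, Aqp4 1.48 ± 1.04 and S100b 1.88 ± 0.582 CPM. Foxj1 made up most of the ependymal sum, with 61.3 ± 21.7 CPM at 0 h, against 1.21 ± 0.314 for Ccdc153 and 1.47 ± 0.484 for Rarres2. The part of the higher neuronal sum at 6 h in the results was not tested, and in bulk cultures fewer cells that express a gene and less RNA per cell cannot be told apart.

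**Figure D1:**
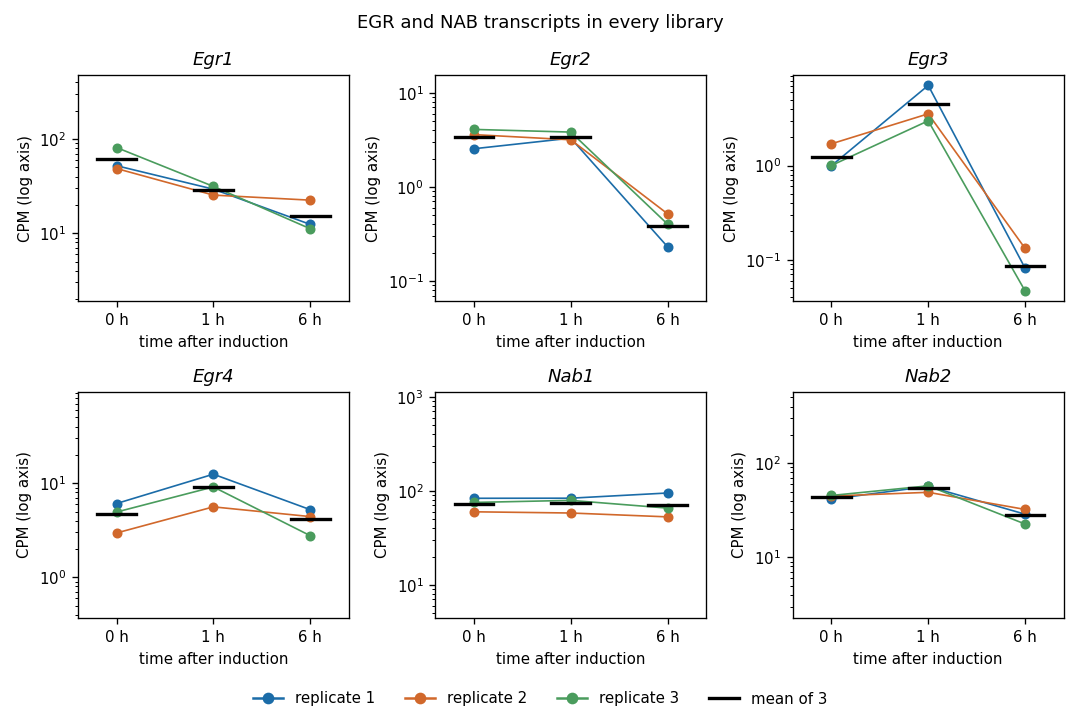
CPM (log axis, each panel spanning the same number of log units) of the 6 genes at the 3 time points, with lines joining libraries of equal replicate number and black bars for the mean of 3. Egr1 stepped down at both time points, Egr2 stayed level until 1 h, Egr3 and Egr4 were highest at 1 h, the time point means of Nab1 were close together and Nab2 was highest at 1 h and lowest at 6 h.

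Egr1, the best studied member of the family, was lower at 1 h and lower again at 6 h. The gene (ENSMUSG00000038418, chromosome 18, 34859823 to 34864984, plus strand, 2 exons) had 52.2, 48.7 and 81.4 CPM in replicates 1, 2 and 3 at 0 h. It had 29.4, 25.4 and 31.5 CPM at 1 h, and 12.4, 22.5 and 11.2 CPM at 6 h. The 3 time points did not overlap in any pair. The smallest step was that of replicate 2 between 1 h and 6 h, where the log2 difference was -0.18, against -1.24 in replicate 1 and -1.49 in replicate 3. The log2 fold change was -1.08 (SE 0.29) at 1 h and -1.98 (SE 0.30) at 6 h against 0 h, the latter a fall of 3.96-fold.

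Egr2, known as Krox20 from the hindbrain and as a regulator of myelination in Schwann cells, had the same level at 1 h as at 0 h within its spread, and a much lower one at 6 h. The gene (ENSMUSG00000037868, chromosome 10, 67535475 to 67542188, plus strand, 2 exons in its longest transcript) had 2.54, 3.60 and 4.08 CPM at 0 h and 3.30, 3.17 and 3.82 CPM at 1 h. At 6 h it had 0.231, 0.517 and 0.401 CPM, which came from 17, 47 and 43 counts. The 0 h and 1 h libraries overlapped, and all 6 of them were above the libraries of 6 h. The log2 fold change was 0.01 (SE 0.29) at 1 h and -3.14 (SE 0.32) at 6 h against 0 h, a fall of 8.81-fold at 6 h. Only Egr3 had a lower log2 fold change at 6 h among the genes tested.

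Egr3, which serves in muscle spindles and in activity-dependent transcription in neurons, was the EGR gene with the widest swing. The gene (ENSMUSG00000033730, chromosome 14, 70077203 to 70082614, plus strand, 2 exons) had 0.995, 1.70 and 1.00 CPM at 0 h, and 7.11, 3.55 and 2.99 CPM at 1 h. At 6 h it was down to 0.0814, 0.132 and 0.0467 CPM, or 6, 12 and 5 counts. The 3 time points did not overlap in any pair, and replicate 1 stood above the other two at 1 h. The log2 fold change was 1.88 (SE 0.43) at 1 h against 0 h, 26th from the highest of the 18858 genes tested. It was -3.82 (SE 0.51) at 6 h against 0 h and -5.70 (SE 0.53) at 6 h against 1 h, the lowest of all genes tested in both comparisons. Egr3 passed the expression filter only through its libraries of 0 h and 1 h, where it was higher, so that its place among the tested genes rests in part on that filter. The fall between 1 h and 6 h was 52.0-fold, with the error of counts of 12 or fewer per library at 6 h behind it.

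Egr4, which does not bind NAB proteins, was higher at 1 h in each replicate, and its mean was back near the starting level at 6 h. The gene (ENSMUSG00000071341, chromosome 6, 85511121 to 85513589, minus strand, 2 exons) had 6.08, 2.96 and 4.94 CPM at 0 h, 12.5, 5.61 and 9.13 CPM at 1 h, and 5.24, 4.42 and 2.77 CPM at 6 h. The 1 h level of replicate 2 lay below the 0 h level of replicate 1, so that these groups overlapped, while all 3 libraries of 1 h were above all 3 of 6 h. Within replicates the log2 difference at 1 h was 1.03, 0.92 and 0.88, which is a narrower range than the spread of the levels. At 6 h against 0 h it was -0.21, 0.58 and -0.83 in replicates 1, 2 and 3, so the replicates differed in direction. The log2 fold change was 0.96 (SE 0.37) at 1 h and -0.17 (SE 0.37) at 6 h against 0 h.

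Nab1, the first of the 2 corepressor genes, was not called in any comparison in the fits of all 9 libraries. The gene (ENSMUSG00000002881, chromosome 1, 52457294 to 52500679, minus strand, 8 exons) had 83.2, 59.8 and 75.2 CPM at 0 h, 83.4, 58.1 and 79.1 CPM at 1 h, and 94.7, 52.8 and 65.5 CPM at 6 h. Replicate 1 was highest and replicate 2 lowest at each time point, and the groups overlapped throughout. The log2 fold changes were 0.02 (SE 0.23) at 1 h and -0.04 (SE 0.23) at 6 h against 0 h, and 0.01 (SE 0.08) and -0.06 (SE 0.08) with the replicate block. The time point means of Nab1 spanned 0.08 on the log2 scale, against 0.84 between replicates of 1 time point.

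Nab2, the NAB gene induced by growth factors, was higher at 1 h and lower at 6 h than at 0 h in every replicate. The gene (ENSMUSG00000025402, chromosome 10, 127660918 to 127668568, minus strand, 7 exons) had 41.5, 44.7 and 45.4 CPM at 0 h, 56.7, 49.04 and 57.4 CPM at 1 h, and 28.7, 32.3 and 22.6 CPM at 6 h. The 3 time points did not overlap in any pair. The log2 fold change was 0.31 (SE 0.13) at 1 h and -0.66 (SE 0.13) at 6 h against 0 h, the latter a fall of 1.58-fold, and -0.97 (SE 0.13) at 6 h against 1 h, a fall of 1.95-fold. Nab2 is the only one of the 6 genes whose exons overlap other genes, all on the opposite strand. Of its 2941 exon bases, it shares 1050 with Gm16229, 151 with Nemp1 and 40 with Stat6. Of these, Stat6 had 10 to 70 counts per library, the antisense gene Gm16229 had 0 counts in every library, and Nemp1 had means of 48.9 ± 9.11 and 45.3 ± 10.1 CPM (SD, n = 3 each) at the start and at 6 h. Nemp1 did not pass the edgeR test at 6 h against 0 h (log2 fold change -0.11, SE 0.20, adjusted p = 0.858), and the strand setting of the counting is not given in the sources used here.

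At 1 h against 0 h, none of the 6 genes was called by edgeR without the block, where 0.0424% of all tested genes were called in either direction and 735 of them had an unadjusted p under 0.05. With the replicate block Egr3 and Egr4 were called higher and Egr1 lower, in a fit that called 1.36% of all genes higher and 2.14% lower. In that fit the log2 fold changes were 1.82 (SE 0.25) for Egr3, 0.94 (SE 0.20) for Egr4 and -1.07 (SE 0.22) for Egr1. When the blocked fit was repeated with 1 library removed at a time, Egr3 was called in 9 of 9. Egr1 lost its call without replicate 3 of 0 h or replicate 2 or 3 of 1 h, and also in the blocked fit of DESeq2. Egr4 lost its call without any 0 h library or without replicate 1 or 3 of 1 h. DESeq2 called Egr3 higher without the block, and Egr3, Egr4 and Nab2 higher with it. Egr3 and Nab2 were among the 3.30% of genes whose 1 h libraries were all above those of 0 h, and Egr1 was among the 4.93% whose 1 h libraries were all below.

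At 6 h against 0 h, Egr1, Egr2, Egr3 and Nab2 were called lower by edgeR, with 0.955% of all genes called lower, and the same 4 were called lower with the replicate block, where 17.5% of all genes were. The 6 h libraries of these 4 genes were all below those of 0 h, which held for 12.1% of all genes. Without the block, removal of 1 library at a time left Egr2 called in 9 of 9 fits. Egr3 was not called once replicate 1 of 0 h or replicate 1 or 3 of 6 h was removed. Egr1 was not called after removal of any 0 h library or of replicate 1 or 3 of 6 h, and Nab2 was called in none of the 9 fits. With the block these 4 genes were called in all 9. Egr4 and Nab1 were each called lower in 1 of the 9 blocked fits, Egr4 in the one without 6 h replicate 2 and Nab1 in the one without 6 h replicate 1 (lowest log2 fold change -0.19).

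At 6 h against 1 h, Egr2, Egr3 and Nab2 were called lower by edgeR, with 0.663% of all genes called lower, and Egr1 and Egr4 joined them with the replicate block, where 17.5% of all genes were called lower. The log2 fold change in the blocked fit was -0.91 (SE 0.23) for Egr1 and -1.08 (SE 0.20) for Egr4. The 6 h libraries of these 5 genes were all below those of 1 h, as were those of 10.0% of all genes. Nab2 lost its call without replicate 1 or 3 of 1 h or replicate 1 of 6 h when no block was used, and Egr1 lost its blocked call without 6 h replicate 1, the same removal with which Nab1 was called lower (log2 fold change -0.20). The comparisons share libraries, so that a high level at 1 h entered both the rise at 1 h and the fall from 1 h to 6 h.

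**Figure D2:**
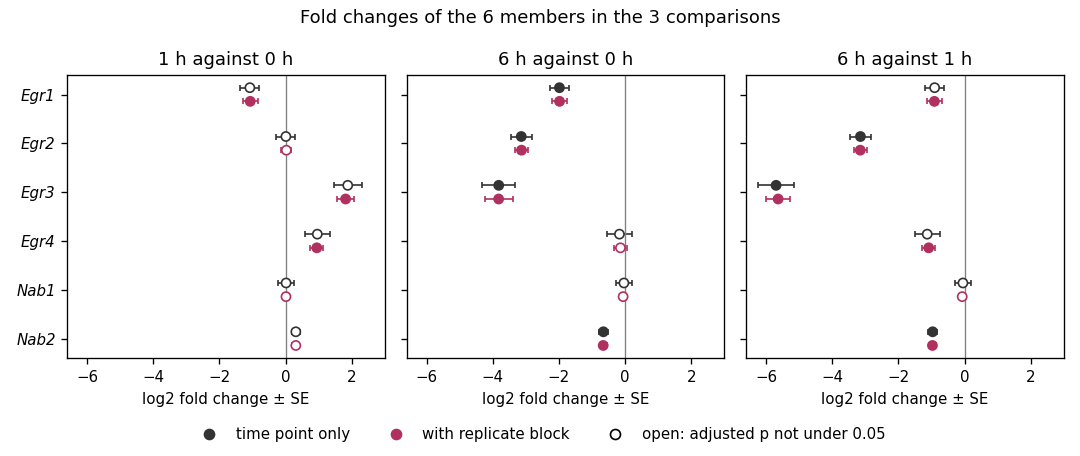
Log2 fold change ± SE of the 6 genes in the 3 comparisons, by edgeR with time point only (dark) and with the replicate block (red), filled where the adjusted p over all genes was under 0.05. The estimates of both fits differed by at most 0.0647, and the standard errors were smaller with the block.

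Levels of different genes were compared per length, as CPM per kb of the union of exons. At 0 h the NAB genes and Egr1 led, with 17.7 ± 2.90 (SD, n = 3) for Nab1, 14.9 ± 0.705 for Nab2 and 13.6 ± 4.004 for Egr1. Their ranges overlapped, so that no order among these 3 can be drawn. Egr4 followed at 2.17 ± 0.736, Egr2 at 1.00 ± 0.231 and Egr3 at 0.280 ± 0.0923 CPM per kb. At 1 h Nab2 (18.5 ± 1.58) and Nab1 (17.9 ± 3.31) had overlapping levels and were above Egr1 (6.41 ± 0.683) and Egr4 (4.22 ± 1.60). Egr3 (1.03 ± 0.507) had come level with Egr2 (1.01 ± 0.102). At 6 h the order was Nab1 (17.3 ± 5.24), Nab2 (9.47 ± 1.67), Egr1 (3.42 ± 1.38), Egr4 (1.93 ± 0.585), Egr2 (0.113 ± 0.0424) and Egr3 (0.0197 ± 0.00974). Among the tested genes with a length, Egr3 stood at percentile 19.2 at 0 h, 34.7 at 1 h and 0.554 at 6 h.

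**Figure D3:**
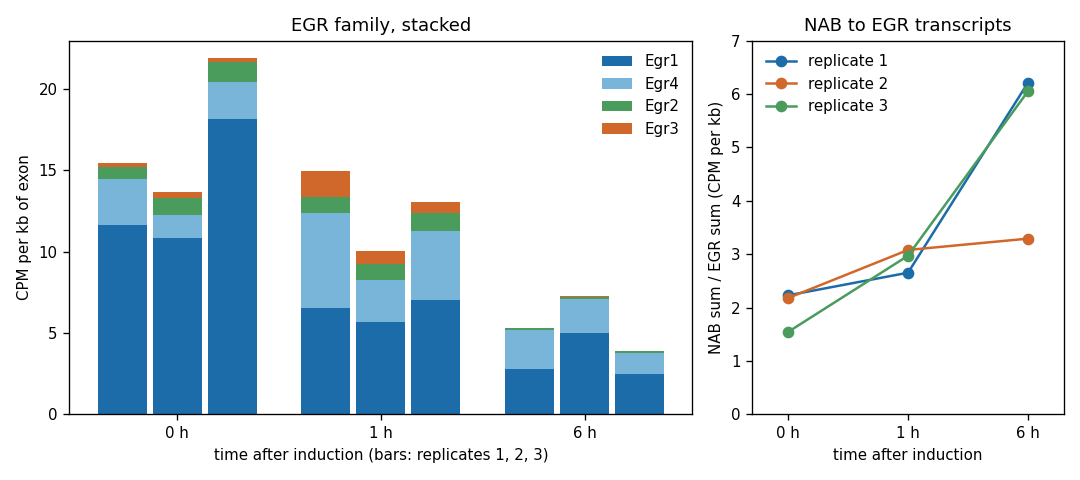
Left, CPM per kb of exon of the 4 EGR genes stacked for each library; right, the sum of Nab1 and Nab2 divided by the sum of the 4 EGR genes in each library (CPM per kb). The EGR sum was highest at 0 h on average, and Egr4 took a larger part of it at 1 h and 6 h, while the NAB to EGR ratio increased least in replicate 2, to 3.29 at 6 h.

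The makeup of the EGR family changed with time. The 4 EGR genes summed to 17.0 ± 4.32 CPM per kb (SD, n = 3) at 0 h, 12.7 ± 2.49 at 1 h and 5.49 ± 1.68 at 6 h. Egr1 supplied 79.2% of this sum at 0 h, 51.4% at 1 h and 61.7% at 6 h. The share of Egr4, which NAB proteins do not bind, was 13.0% at 0 h, 32.5% at 1 h and 35.8% at 6 h. Egr3 held 1.78%, 8.01% and 0.344% at the same time points. The sum of the NAB genes was 32.7 ± 2.498, 36.4 ± 4.86 and 26.8 ± 5.27 CPM per kb. The ratio of NAB to EGR transcripts was thus 1.98 ± 0.382 at 0 h (range 1.54 to 2.23), 2.90 ± 0.221 at 1 h (2.65 to 3.08) and 5.18 ± 1.64 at 6 h (3.29 to 6.21). The ranges of the 3 time points did not overlap. The EGR sum in this ratio includes Egr4, so that it is not a ratio to the NAB-binding EGR genes alone. These sums and ratios are of transcripts and follow from the levels by which members were selected, so that they were not tested.

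The patterns most like those of the members were sought among 13606 other tested genes with a mean of at least 1 CPM, by Pearson's r of log2 CPM over the 9 libraries. For Nab2 the closest gene of all was Egr3 (r = 0.97), and for Egr3 Nab2 took the third place (r = 0.97) after Fosl2 (r = 0.99), which encodes the AP-1 subunit Fra-2, and Nudcd3 (r = 0.97). Fosl2 had 17.1 ± 0.526 CPM (SD, n = 3) at 0 h, 21.8 ± 3.27 at 1 h and 10.1 ± 1.41 at 6 h. Next to Nab2 after Egr3 stood Prss23 and Nudcd3 (both r = 0.96). For Egr2 the closest were Eif4enif1 (r = 0.99), Tnfrsf12a (r = 0.98), the receptor of the cytokine TWEAK, and Cldn12 (r = 0.98). Tnfrsf12a had 53.0 ± 1.01 CPM at 0 h, 55.1 ± 7.40 at 1 h and 25.5 ± 3.57 at 6 h. For Egr1 they were Tiparp (r = 0.94), Taf4b (r = 0.94) and Ppp4r2 (r = 0.91), with Tiparp going from 63.0 ± 1.56 at 0 h through 58.1 ± 1.51 at 1 h to 50.2 ± 2.61 CPM at 6 h. Likeness of shape does not mean likeness of size, and the points share the 3 time points and the replicate numbers.

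**Figure D4:**
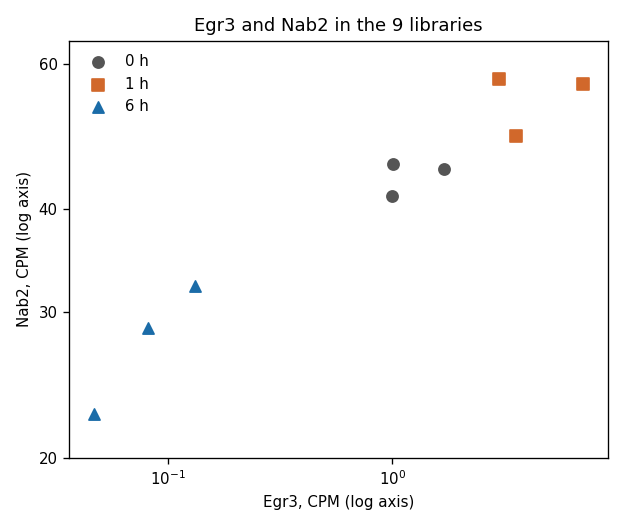
Nab2 against Egr3 in the 9 libraries (CPM, log axes), with symbols for 0 h, 1 h and 6 h. The libraries formed 3 groups by time point along both axes, from 0.0467 to 7.11 CPM of Egr3 and from 22.6 to 57.4 CPM of Nab2.

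Within the family, r over the 9 libraries was 0.91 between Egr2 and Egr3, 0.90 between Egr2 and Nab2, and 0.82 between Egr1 and Egr2. It was 0.17 between Egr1 and Egr4, and between -0.02 and 0.53 between Nab1 and the other 5 genes. Egr4 had 0.41 with Egr2, 0.65 with Egr3 and 0.70 with Nab2, and Egr1 had 0.60 with Egr3 and 0.66 with Nab2. The values mix steps between time points with differences shared by libraries of equal replicate number. The highest value of Nab1, 0.53 with Egr4, belongs to a pair of genes that both had their highest level in replicate 1 at each time point. No relation within a time point was drawn from 3 libraries.

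The route from EGF and FGF receptors to the EGR genes was followed with 34 listed genes of receptors, adaptors, Ras and Raf, MEK, ERK and RSK kinases and nuclear factors, all of them tested. None was called at 1 h or 6 h without the block, and their median log2 fold change was -0.02 at 1 h and -0.07 at 6 h, against 0.00 over all genes in both comparisons. With the block 1 was higher and 2 lower at 1 h, against 1.36% and 2.14% of all genes. At 6 h, 8 were higher and 9 lower with the block, against 17.4% and 17.5% of all genes. Egfr, the receptor of the withdrawn ligand, had 659 ± 70.4 CPM (SD, n = 3) at 0 h, 627 ± 121 at 1 h and 761 ± 60.3 at 6 h. It passed the edgeR test at 6 h against 0 h only with the block (log2 fold change 0.21, SE 0.07, adjusted p = 0.0392), and this call was lost without any 0 h library or without replicate 1 or 3 of 6 h. Fgfr1, the receptor whose ligand was kept, had 327 ± 56.8, 357 ± 47.9 and 326 ± 67.0 CPM and did not pass the test against 0 h in either fit.

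Srf, which encodes the factor that binds CArG boxes, was called higher at 1 h and lower at 6 h with the block only. It had 40.6 ± 9.67 CPM (SD, n = 3) at 0 h, 53.0 ± 15.8 at 1 h and 27.5 ± 2.55 at 6 h. With the block its log2 fold change by edgeR was 0.37 at 1 h (SE 0.09, adjusted p = 0.0448) and -0.54 at 6 h (SE 0.09, adjusted p = 0.00065), each in 3 of 3 replicates, and neither was called without the block. The blocked call at 1 h was kept in 3 of 9 fits with 1 library removed, those without replicate 2 of 1 h or replicate 2 or 3 of 6 h, and the call at 6 h in 9 of 9. The ETS partner Elk1 had 39.8 ± 3.02, 42.4 ± 5.10 and 39.5 ± 3.05 CPM and was not called in any fit against 0 h, while its relative Elk4 fell at 6 h with the block (log2 fold change -0.32, SE 0.06, adjusted p = 0.00092 by edgeR). Mkl2, a coactivator of SRF (now named Mrtfb), and Sos1, which loads Ras with GTP, fell at 1 h with the block (log2 fold changes -0.33, SE 0.06, and -0.31, SE 0.07). Both calls were lost without replicate 3 of 0 h, and that of Sos1 also without replicate 2 of 0 h. The kinase genes Map2k1, for MEK1, and Rps6ka2, a RSK, and the receptor gene Erbb2 rose at 6 h with the block, by 0.36 (SE 0.05), 0.40 (SE 0.05) and 0.35 (SE 0.05) on the log2 scale. Transcript levels do not measure the activity of these kinases.

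Genes described as bound or regulated by EGR factors in other cells moved in both directions. Of the 36 listed, 32 were tested, and their median log2 fold change was 0.04 at 1 h and 0.14 at 6 h against 0 h. At 1 h none was called without the block, and 7 were higher and 1, Id2, was lower with it, where 1.36% of all genes were called higher and 2.14% lower. At 6 h, 2 were higher and 1 lower without the block, and 12 were higher and 9 lower with it. Over all genes, 1.46% were called higher and 0.955% lower without the block, and 17.4% and 17.5% with it. Rrad, which encodes a small GTPase, was among those called higher without the block (log2 fold change 1.499, SE 0.22, adjusted p = 0.0196 by edgeR). Its mean level was 1.53 ± 0.151 CPM before induction and 4.31 ± 0.521 CPM after 6 h (SD, n = 3 each). This call was lost when any 0 h or 6 h library was removed, and with the block Rrad was called in 9 of 9 such fits. Id2 is named after its values were seen.

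Arc, an immediate early gene of synaptic plasticity driven by EGR factors in neurons, had 6.71 ± 2.60 CPM (SD, n = 3) at 0 h, 5.67 ± 2.23 at 1 h and 2.12 ± 1.14 at 6 h. Its log2 fold change at 6 h was -1.70 with the block (SE 0.11, adjusted p = 3.0e-07 by edgeR) and -1.66 without it (SE 0.47, adjusted p = 0.113). Cdk5r1, which encodes the p35 activator of CDK5, went the other way, from 8.45 ± 2.11 CPM at 0 h through 12.04 ± 4.65 at 1 h to 21.2 ± 7.24 at 6 h. It rose with the block by 0.48 (SE 0.08) at 1 h and by 1.30 (SE 0.08) at 6 h on the log2 scale. Pdgfb, a growth factor gene, rose with the block by 0.82 (SE 0.19) at 1 h and 1.90 (SE 0.17) at 6 h, at levels of 0.795 ± 0.493 CPM at 0 h and 3.06 ± 2.12 CPM at 6 h. The synaptic vesicle gene Syn2 rose with the block at 6 h by 0.85 (SE 0.05). The tissue factor gene F3 rose at 1 h with the block by 0.46 (SE 0.09), from 14.2 ± 1.71 to 19.5 ± 2.69 CPM, and stood at 10.2 ± 0.936 CPM at 6 h. Gdf15, a stress cytokine gene, rose at 1 h with the block by 0.63 (SE 0.10). Its level differed widely between replicates, with 11.2 ± 9.39 CPM at 0 h and 17.4 ± 14.4 CPM at 1 h. Without the block its SE was 1.15 and it was not called. With 1 library removed at a time, the blocked calls at 6 h of Arc, Cdk5r1, Pdgfb and Syn2 and that of Gdf15 at 1 h were kept in 9 of 9 fits. At 1 h that of Cdk5r1 was lost without replicate 1 or 2 of 0 h or replicate 2 of 1 h, that of F3 without any 0 h library or replicate 1 of 1 h, and that of Pdgfb without any 0 h or 1 h library.

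**Figure D5:**
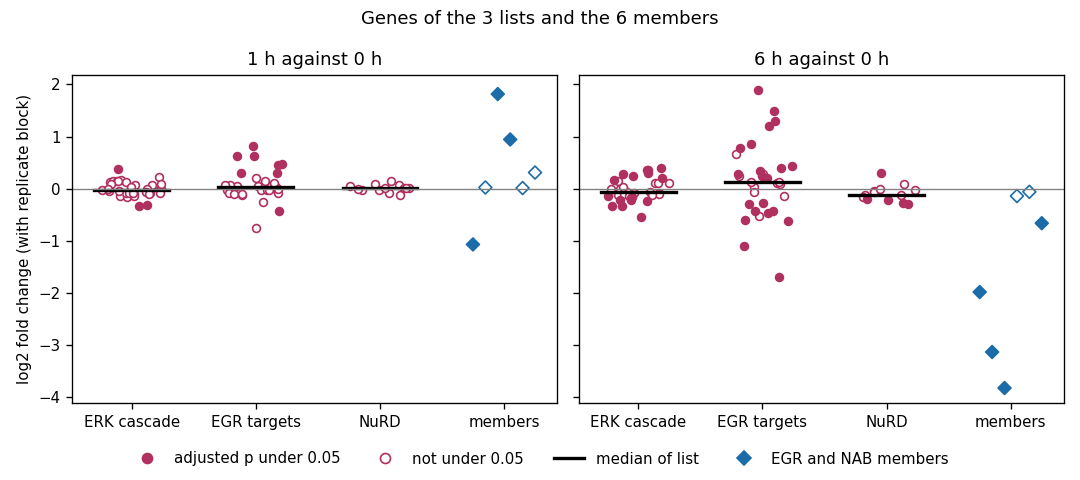
Log2 fold change with the replicate block of the tested genes of the 3 lists (circles) and of the 6 EGR and NAB genes (diamonds, from left to right Egr1, Egr2, Egr3, Egr4, Nab1, Nab2) at 1 h and 6 h against 0 h, filled where the adjusted p by edgeR was under 0.05, with the median of each list as a bar. The ERK cascade and NuRD genes lay within 1 log2 unit of 0. Egr1, Egr2 and Egr3 lay below every listed gene at 6 h, but were chosen by their falls at 6 h in these libraries.

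The NuRD complex, which NAB proteins recruit, was represented by 13 genes, all tested. None was called at 1 h in either fit or at 6 h without the block. The median log2 fold change was 0.02 at 1 h and -0.11 at 6 h, with 11 of 13 genes below 0 at 6 h, as were 50.5% of all genes. With the block 4 fell and 1 rose at 6 h, in a fit that called 17.5% of all genes lower and 17.4% higher. The 4 were the histone deacetylase genes Hdac1 (log2 fold change -0.27, SE 0.05) and Hdac2 (-0.22, SE 0.05), the histone-binding subunit gene Rbbp7 (-0.29, SE 0.05) and Gatad2a (-0.19, SE 0.05). Mta3, which encodes one of the MTA scaffold subunits, rose by 0.31 (SE 0.07) on the log2 scale. These differences were smaller than that of Nab2 in the same fit, which was -0.66 (SE 0.11).

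The 3′ ends of the transcripts were inspected for the pentamer ATTTA, a letter pattern known from unstable messenger RNAs. It was found 7 times in the 3′UTR of the GENCODE transcript of Egr3, 6 times in that of Nab1, 3 times in those of Egr2 and Nab2, 2 times in that of Egr1 and 0 times in that of Egr4. The median over 14171 tested genes was 2, and 14.1% of them had at least as many as Egr3. The count grows with length, and the 3′UTR of Egr3 had 2648 bases against a median of 1173. Per kb, Nab2 had the most of the 6 genes (3.97, with 10.8% of genes at least as high), before Nab1 (3.11), Egr3 (2.64, with 24.1% of genes at least as high), Egr2 (2.49) and Egr1 (1.64). RNA stability was not measured.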

How the data were processed

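The authors aligned paired-end reads of stranded mRNA libraries to the mouse genome (mm10, GRCm38) with STAR 2.5.3a and deposited raw counts of reads per Ensembl gene without normalisation. Per the submitters' processing notes, FastQC and DESeq2 1.22.1 were also used. The strand setting of the counting is not given in the sources used here. Symbols, positions and exon lengths came from GENCODE M21, which named 48144 of the 48526 genes, and start site windows from RefSeq (GRCm38.p6).

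Counts were fitted in R 4.3.3 with edgeR 4.0.16 (filterByExpr with a minimum count of 10 and a minimum total of 15, TMM, glmQLFit, glmQLFTest) over all 9 libraries, with Benjamini-Hochberg adjustment over all 18858 tested genes, and the script was tested on simulated data. Standard errors were computed from each log2 fold change and its F statistic, and log2 CPM with a prior count of 2. Total counts of 65871454 to 105592597 per library leave counting error small, except for Egr3 and Egr2 at 6 h. No 2 libraries agreed within sampling noise. Summaries used pandas 2.3.3 and numpy 2.4.6 under Python 3.11.15, and plots matplotlib 3.10.9.

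Replicate numbers 1, 2 and 3 stand for the letters B, C and D in the titles of the libraries. After subtraction of the time point means, libraries with the same number correlated at 0.733 to 0.800 (9 pairs), so that the numbers pair the samples, although no source says what they share. Others correlated at -0.462 to -0.314 (18 pairs). Deviations from a mean of 3 libraries sum to 0, which pushes these values below 0, so that they add no separate support.

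Members and lists (ERK cascade, EGR targets, NuRD, markers of 7 cell types) were chosen with earlier results of these data known. Named were the 6 members, Egfr, Fgfr1, Srf and Elk1, per list and comparison up to 5 called genes (largest absolute log2 fold change, mean expression 1 CPM or more), the 3 genes most like Egr1, Egr2, Egr3 and Nab2, and genes with exons overlapping a member. Some single genes of the lists are not reported here. Alternatives were DESeq2 1.42.0, the replicate block in both tools, RLE or no scaling, no filter or a minimum mean of 1 CPM, only the 6 libraries compared, each library left out, a prior count of 5 for the pairing, and the length of the longest transcript.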

Additional observations from a re-analysis of the deposited data

How the results depend on the processing

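Of the 6 genes, edgeR called 0 at 1 h, 4 at 6 h against 0 h and 3 at 6 h against 1 h. With the replicate block it called 3, 4 and 5, DESeq2 called 1, 4 and 5, and DESeq2 with the block 3, 4 and 5. A fit of only the 6 libraries compared called 2 at 6 h against 0 h. Over the fits that left out a library, with and without the block (the blocked ones were chosen after the data had been seen), the counts were 0 to 4, 1 to 5 and 2 to 5. The lists moved likewise. ERK cascade genes went from 0 to 3 at 1 h and 17 at 6 h with the edgeR block, to 4 and 17 with the DESeq2 block and to 2 at 6 h with DESeq2. EGR targets numbered 8 at 1 h (0 without the block) and 21 at 6 h (3 without it) with either block, 7 at 6 h with DESeq2 and 1 with only the 6 libraries. NuRD genes went from 0 to 5 at 6 h with either block. With a library left out, ERK cascade calls were 0 to 4 at 1 h and 0 to 23 at 6 h, EGR target calls 0 to 8 and 0 to 23, and NuRD calls at 6 h 0 to 8. The cause was not tested.

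Log2 fold changes of members changed sign only for Egr2 at 1 h, Egr4 at 6 h against 0 h and Nab1 in all 3 comparisons, none of them called with all 9 libraries. Without a scaling factor, that of Egr2 at 1 h was -0.0072 and that of Nab1 at 1 h -0.00033. With a library left out, Egr2 at 1 h lay between -0.16 and 0.18, Egr4 at 6 h against 0 h between -0.51 and 0.16, and Nab1 between -0.10 and 0.16 at 1 h, -0.30 and 0.14 at 6 h against 0 h and -0.31 and 0.13 at 6 h against 1 h. Nab2 at 6 h against 0 h was not called without the expression filter (-0.64) or with only 6 libraries (-0.65). Depth limits Egr3 at 6 h, with 5 to 12 counts per library.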
